A study of Homo sapiens with 9 samples.

Results

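The comparison described here set HEK293 cells given the agonist TC-G-1008 against unstimulated cells carrying the same receptor label, across all genes that the platform annotation names. It rests on 6 of the 9 arrays of the study, chosen by the labels alone: 3 arrays labelled as GPR39 overexpressed with TC-G-1008 at 1 uM (the TC-G-1008 arrays) and 3 labelled as GPR39 overexpressed with cumate at 0.03 mg/mL (the GPR39 arrays). The other 3 arrays, of naive cells or mock controls that got no cumate (the mock arrays), entered the fit for their spread and are given beside the results. HEK293 is an established human embryonic kidney cell line, here grown in DMEM with 10% FBS. The labels mention no cumate for the TC-G-1008 arrays, so the agonist and a possible lack of cumate cannot be told apart. They give no exposure time and no group that received the agonist without the receptor label, and they do not state whether the cells were 1 clone or a pool. The replicates are called biological with no word on separate cultures, so p-values reflect array-to-array spread, which may be technical.

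GPR39 is a G protein-coupled receptor that responds to extracellular zinc. It is known to couple to several G protein families, among them the one that drives phospholipase C and calcium release, and TC-G-1008 is a synthetic small-molecule agonist of it. Cumate is a small molecule used to release a bacterial repressor from engineered promoters. Receptors of this kind switch on immediate-early genes, whose transcription starts without new protein synthesis, and these encode transcription factors, secreted signals and the phosphatases and RNA-decay proteins that end the signal.

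The array reported 33376 of 53617 probe sets above the dim-signal filter, and 11916 named genes were tested with 1 probe set each. Array medians of the log2 signal lay between 3.13 and 3.22. The 1 probe set of GPR39 did not pass the filter: it read 2.62, 2.55 and 2.55 on the GPR39 arrays, 2.45, 2.65 and 2.64 on the TC-G-1008 arrays and 2.43, 2.55 and 2.43 on the mock arrays, so the arrays do not show the label, and the sources used here do not say where its probes lie relative to the introduced sequence. Across probe sets, mock replicate 1 was closer to the GPR39 arrays (correlations of 0.988 to 0.989) than to mock replicates 2 and 3 (0.986 and 0.984). The 12 HEK293 and kidney-lineage markers that could be tested had array means of 5.82 to 5.84 on the GPR39 arrays and 5.65 to 5.75 on the TC-G-1008 arrays, with EYA1 lower (read 7.78, 7.78 and 7.76 on the GPR39 arrays and 7.01, 7.03 and 6.81 on the TC-G-1008 arrays; difference -0.82 ± 0.08) and 0 of 12 higher. Of other cell types, the fibroblast markers DCN and LUM, the endothelial marker PECAM1 and the hepatocyte marker ALB were dim on all 9 arrays. Other markers of these types were above the dim-signal limit: THY1, KDR, ESAM, APOA1 and APOA2 on all 9 arrays and VWF on 8. Array means of the fibroblast list were 2.27 to 2.34 on the GPR39 arrays and 2.35 to 2.37 on the TC-G-1008 arrays, those of the endothelial list 2.87 to 3.01 and 2.95 to 2.97, and those of the hepatocyte list 2.78 to 3.02 and 2.96 to 3.08, with no member of these lists past the threshold. The 5 leukocyte markers with a probe set had array means of 3.78 to 3.94 on the GPR39 arrays, 3.94 to 4.04 on the TC-G-1008 arrays and 3.49 to 3.59 on the mock arrays. No member was past the threshold between GPR39 and TC-G-1008. CD68 had means of 7.6 on the GPR39, 7.9 on the TC-G-1008 and 6.7 on the mock arrays, and TYROBP 3.3, 3.5 and 2.9. Group means of LYZ, LAPTM5 and CD14 lay between 2.3 and 3.3. The part of these markers in the results was not tested, and in RNA from whole cultures more cells of a type and more RNA per cell cannot be told apart.

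TC-G-1008 arrays differed from GPR39 arrays in many genes, with few and large rises against many and small falls. At an adjusted p under 0.05 (limma, Benjamini-Hochberg over all probe sets tested), 441 of 11916 named genes were higher (3.7%) and 1162 were lower (9.75%). At 2-fold or more the order turned, with 69 genes higher (0.579%) and 30 lower (0.252%), and at 4-fold or more there were 14 higher (0.117%) and 0 lower. Among the 14, USP17L12 and USP17L9P had the same log2 difference (2.27) and the same limma adjusted p (1.06e-05). They may be 1 measurement that counts for both genes. Differences below are TC-G-1008 minus GPR39 means of 3 arrays a group, on the log2 scale. The standard error beside each comes from the limma fit, which uses the spread of all 9 arrays and of other probe sets. It can differ from the spread of the 6 readings given. A gene called dim lay under the 40th percentile of its array. Over all probe sets, 3025 were called (9.06%), 1040 of them higher (3.12%) and 1985 lower (5.95%). The median difference over the named genes was -0.03 on the log2 scale, and 6701 of the 11916 differences were below 0. All 3 TC-G-1008 arrays lay above all 3 GPR39 arrays for 1582 genes (13.3%) and below them for 2984 (25%), which is the background for every such separation given below. Of the called genes, 212 of the 441 higher and 468 of the 1162 lower were called in each of 18 alternative analyses that tested them, and the counts were lower without a GPR39 array: 579, 546 and 588 probe sets higher, and 1004, 969 and 921 lower, without GPR39 replicates 1, 2 and 3, against 1291 lower without TC-G-1008 replicate 1. List counts of 3 or fewer often lost 1 or more members without 1 array. Each list count below stands against 3.7% higher and 9.75% lower over all named genes. Genes named below as having risen or fallen kept their call in each of these alternatives unless a sentence says otherwise.

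**Figure D1:**
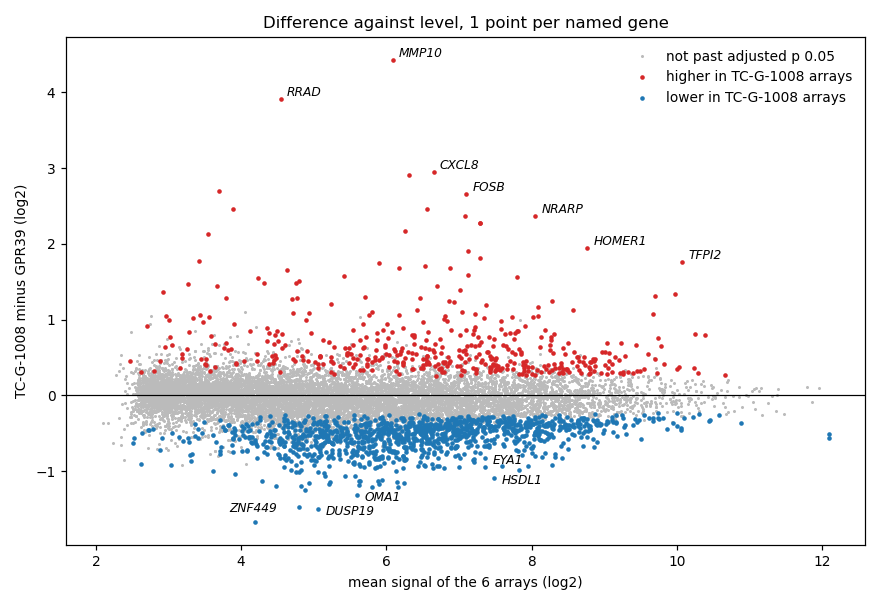
Difference between TC-G-1008 and GPR39 arrays (log2) against the mean signal of the 6 arrays (log2), 1 point per named gene, red for genes higher and blue for genes lower at an adjusted p under 0.05. The rises reach above 4 while the largest fall, of LINC02893, is -1.67, and the called falls are densest at middle and high signal.

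Falls were called more often where signal was high. Among the dimmest of 5 equal groups of named genes, by mean over the 9 arrays, 0.923% were lower and 1.38% higher. In the brightest group, 16.2% were lower and 7.18% higher.

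Promoters of 6 genes that rose are shown first, because they belong to genes on which the results turn and hold elements of early-response factors: AP-1 in 4 of them, and another element in each of the other two. The stretches are the 150 bases before the RefSeq start of transcription (assembly GRCh38.p14), 5′ to 3′ on the gene's strand. They were chosen after the values were seen. Capitals mark the AP-1 element TGANTCA in the first 4, the CArG element in EGR1 and the cyclic AMP response element TGACGTCA in DUSP1. MMP10 lies at chr11:102780629-102780778 on the minus strand, CXCL8 at chr4:73740419-73740568 on the plus strand, IL11 at chr19:55370464-55370613 on the minus strand, TFPI2 at chr7:93890754-93890903 on the minus strand, EGR1 at chr5:138465329-138465478 on the plus strand and DUSP1 at chr5:172771196-172771345 on the minus strand.
MMP10: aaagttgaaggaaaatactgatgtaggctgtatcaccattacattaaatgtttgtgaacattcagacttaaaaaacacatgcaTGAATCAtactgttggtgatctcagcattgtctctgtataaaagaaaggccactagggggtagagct
CXCL8: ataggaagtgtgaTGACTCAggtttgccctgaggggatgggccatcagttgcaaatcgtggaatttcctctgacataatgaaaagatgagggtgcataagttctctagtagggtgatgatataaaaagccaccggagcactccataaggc
IL11: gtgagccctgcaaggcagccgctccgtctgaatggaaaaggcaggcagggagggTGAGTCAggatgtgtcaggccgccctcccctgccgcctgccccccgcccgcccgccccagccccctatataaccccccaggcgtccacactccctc
TFPI2: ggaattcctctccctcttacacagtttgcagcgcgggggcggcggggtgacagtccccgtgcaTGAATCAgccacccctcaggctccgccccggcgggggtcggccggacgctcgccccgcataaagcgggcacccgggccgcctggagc
EGR1: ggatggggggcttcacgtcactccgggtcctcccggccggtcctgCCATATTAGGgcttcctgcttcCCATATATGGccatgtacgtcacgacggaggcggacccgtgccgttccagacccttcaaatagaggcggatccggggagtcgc
DUSP1: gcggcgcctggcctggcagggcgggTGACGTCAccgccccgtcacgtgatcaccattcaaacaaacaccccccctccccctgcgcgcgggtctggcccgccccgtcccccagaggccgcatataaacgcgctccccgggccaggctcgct

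AP-1 is the dimer of FOS and JUN family proteins, the CArG element is the binding sequence of serum response factor, and the cyclic AMP response element is that of the CREB and ATF proteins. The AP-1 element began 67 bases before the start in MMP10, 137 in CXCL8, 96 in IL11 and 87 in TFPI2. EGR1 held 2 CArG elements in this stretch, and in DUSP1 the cyclic AMP response element began 125 bases before the start. Both strands were searched from 250 bases before to 50 after the start in the 8400 of 10280 protein-coding genes tested that have a promoter in the table. The AP-1 letters occurred in 8 of 47 promoters of genes that rose at least 2-fold (17.0%), in 20 of 334 of all risers (5.99%), in 39 of 957 of the genes that fell (4.08%), in 2 of 18 of those that fell at least 2-fold (11.1%) and in 417 of all 8400 (4.96%). Over all 27305 RefSeq promoters of that length the share was 7.76%. The 8 genes were MMP10, CXCL8, IL11, TFPI2, DCLK1, ARRDC4, PRR9 and ABL2. The full cyclic AMP element occurred in 18 of 334 risers (5.39%), 24 of 957 fallers (2.51%) and 250 of 8400 genes (2.98%). Its shorter core TGACG, which the full element contains, occurred in 43.1% of risers, 30.8% of fallers and 32.3% of all. The NF-kB letters GGGNNTTCC occurred in 8.08% of risers and 7.8% of all, and the CArG element in 1.5% and 1.15%. These shares describe letters in a window and are not a test of binding.

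**Figure D2:**
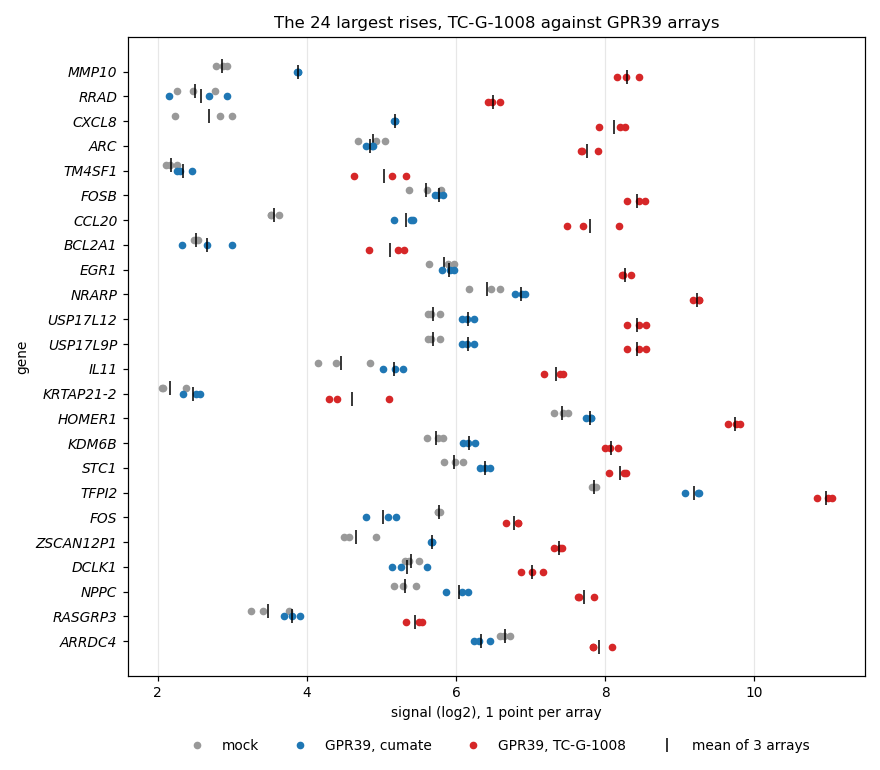
Signal (log2) on each of the 9 arrays for the 24 genes with the largest rise under the naming rule, grey for mock, blue for GPR39 and red for TC-G-1008, with a bar at each group's mean. In all 24 genes the 3 red points lie to the right of the 3 blue points, while blue and grey points lie close together for ARC, EGR1 and FOSB and apart for CXCL8, CCL20 and MMP10.

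Extracellular proteases held the gene with the largest rise. MMP10, which encodes stromelysin-2, a secreted matrix metalloproteinase, read 3.87, 3.88 and 3.88 on the GPR39 arrays and 8.28, 8.46 and 8.17 on the TC-G-1008 arrays. The groups were far apart, a 21.5-fold rise (difference 4.42 ± 0.09, adjusted p = 5.3e-07). Its mock arrays read 2.79, 2.93 and 2.87, so it was also higher in the GPR39 than in the mock arrays, by 1.02. The collagenase genes MMP1 and MMP13 rose too. MMP1 read 2.99, 2.81 and 3.01 on the GPR39 arrays and 4.05, 5.05 and 4.06 on the TC-G-1008 arrays, with replicate 2 about 1 unit above the others of its group (difference 1.45 ± 0.25). MMP13 read 5.54, 5.54 and 5.48 on the GPR39 arrays and 6.48, 6.50 and 6.16 on the TC-G-1008 arrays (difference 0.86 ± 0.12). TFPI2, a secreted inhibitor of serine proteases, started bright and read 9.07, 9.26 and 9.25 on the GPR39 arrays and 10.99, 11.04 and 10.84 on the TC-G-1008 arrays, a difference of 1.76 ± 0.08. Of 23 proteases and inhibitors tested, 5 were higher (21.7%) and 1 lower. The call of the metalloproteinase inhibitor TIMP3 at 0.29 ± 0.07, and that of the 1 lower gene, the membrane inhibitor RECK at -0.50 ± 0.09, were lost in at least 1 alternative. The tissue inhibitors TIMP1 and TIMP2 (-0.17 and -0.08) and the membrane-bound MMP14 (-0.29) did not pass, and the median of the list was -0.02.

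Cytokine and chemokine genes were also higher at a greater share than named genes as a whole. CXCL8, the neutrophil chemokine interleukin-8, read 5.17, 5.19 and 5.19 on the GPR39 arrays and 8.20, 8.27 and 7.91 on the TC-G-1008 arrays. That was a 7.70-fold rise over the GPR39 arrays (difference 2.95 ± 0.19, adjusted p = 1.4e-04). The mock arrays read 3.0, 2.23 and 2.84, with mock replicate 2 below the dim-signal limit. CCL20, which attracts CCR6-bearing lymphocytes and dendritic cells, read 5.17, 5.43 and 5.39 on the GPR39 arrays and 7.70, 8.19 and 7.49 on the TC-G-1008 arrays (difference 2.46 ± 0.17). IL11, an interleukin-6 family cytokine, read 5.19, 5.29 and 5.02 on the GPR39 arrays and 7.39, 7.18 and 7.43 on the TC-G-1008 arrays (difference 2.17 ± 0.17), and its mock readings of 4.85, 4.39 and 4.14 overlapped none of the GPR39 readings. TSLP, an epithelial cytokine that acts on dendritic cells, read 3.31, 3.73 and 3.67 on the GPR39 arrays and 4.75, 5.32 and 5.10 on the TC-G-1008 arrays (difference 1.49 ± 0.16). CXCL14 rose by less, 0.63 ± 0.10. In this list 5 of 25 genes were higher (20%, against 3.7% over all named genes) and 1 lower, and all 6 calls held in every alternative. The 1 that fell was CD70, the ligand of the TNF receptor family member CD27: it read 7.24, 7.43 and 7.14 on the GPR39 arrays and 6.36, 6.22 and 6.35 on the TC-G-1008 arrays, against mock readings of 5.41, 5.42 and 4.98. Its difference was -0.96 ± 0.13, after a difference of 2.0 between GPR39 and mock arrays, and the 2 comparisons share the GPR39 arrays. CCL2 at -0.60, TNF at -0.26, LIF at 0.21 and CXCL2 at 0.52 did not pass, and the list median was 0.16.

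Among growth factors and hormones, rises were led by calcium-regulating and EGF-type ligands. STC1, which encodes the secreted glycoprotein stanniocalcin, read 6.32, 6.46 and 6.39 on the GPR39 arrays and 8.29, 8.26 and 8.06 on the TC-G-1008 arrays (difference 1.81 ± 0.10). Its relative STC2 read 6.73, 6.89 and 6.72 on the GPR39 arrays and 7.67, 7.53 and 7.73 on the TC-G-1008 arrays (difference 0.86 ± 0.08). HBEGF, an EGF receptor ligand released by proteases from the cell surface, read 6.16, 6.13 and 6.18 on the GPR39 arrays and 7.01, 7.0 and 6.97 on the TC-G-1008 arrays (difference 0.83 ± 0.11). The HBEGF readings of a group lay close together, far closer than the groups. CCN2, connective tissue growth factor, rose by 0.66 ± 0.09 from a GPR39 mean that was itself 2.54 above mock. FGF9, a fibroblast growth factor, fell by 0.64 ± 0.08. In all, 6 of 34 members were higher (17.6%) and 4 lower (11.8%), with a median of -0.03, and 4 and 1 of these held in every alternative. The lower count was 1 without any 1 of the GPR39 replicates 1, 2 and 3, and 2 without mock replicates 2 or 3 or TC-G-1008 replicates 1 or 3. Secreted peptides outside the lists also rose: the neuropeptide genes NTS, encoding neurotensin, by 1.58 ± 0.15, and GAL, encoding galanin, by 1.16 ± 0.09, and NPPC, encoding C-type natriuretic peptide, by 1.68 ± 0.11. These were taken from genes above 2-fold after their values were seen, apart from NPPC, which is among the 24 largest rises.

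EPHA2, an ephrin receptor tyrosine kinase, read 7.47, 7.51 and 7.51 on the GPR39 arrays and 8.61, 8.38 and 8.60 on the TC-G-1008 arrays (difference 1.03 ± 0.09). IGF1R, the receptor of insulin-like growth factor, read 7.20, 7.19 and 7.27 on the GPR39 arrays and 8.03, 8.02 and 8.06 on the TC-G-1008 arrays (difference 0.82 ± 0.13). The receptors that were lower were EPHA7 (-0.77 ± 0.08), the stem cell factor receptor KIT (-0.53 ± 0.07) and the Wnt-binding RYK (-0.40 ± 0.07). The counts for receptor tyrosine kinases and their brakes were 3 higher (7.89%) and 4 lower (10.5%) of 38, against 3.7% and 9.75% of all named genes. F2R, the thrombin receptor and itself a G protein-coupled receptor, was among the 24 largest falls: it read 6.73, 6.78 and 6.63 on the GPR39 arrays and 5.88, 5.46 and 5.36 on the TC-G-1008 arrays, against mock readings of 6.64, 6.65 and 6.64. The difference was -1.15 ± 0.13, and groups without overlap were a condition of that ranking. Of 23 genes of receptor desensitization and G protein regulation, 2 were higher and 0 lower. ARRDC4, an arrestin-domain protein that is also a glucose-responsive gene, read 6.31, 6.45 and 6.24 on the GPR39 arrays and 7.83, 8.09 and 7.84 on the TC-G-1008 arrays (difference 1.59 ± 0.10). The other was RGS16 at 0.53 ± 0.11, whose call was lost in at least 1 alternative. RGS4 stood at 0.90 and did not pass.

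Of the zinc-handling list 7 members could be tested, metallothioneins and MTF factors, with 2 higher and 1 lower, or 1 higher without any 1 GPR39 replicate or TC-G-1008 replicates 1 or 3. MT2A, a metallothionein that binds zinc and copper, read 6.80, 6.72 and 6.82 on the GPR39 arrays and 7.32, 7.46 and 7.52 on the TC-G-1008 arrays. It rose by 0.65 ± 0.10, with mock readings of 6.83, 6.51 and 6.69. MT1X at 0.35, MT1E at 0.21 and MT3 at 0.08 did not pass. MT1F read lower at -0.80 ± 0.16 and MTF1, the zinc-sensing activator of metallothionein genes, higher at 0.33 ± 0.07, and both calls were lost in at least 1 alternative.

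In the Ras and MAP kinase route, brakes and kinases were listed apart. DUSP1, a nuclear phosphatase that inactivates MAP kinases, read 9.31, 9.34 and 9.28 on the GPR39 arrays and 10.59, 10.68 and 10.68 on the TC-G-1008 arrays (difference 1.34 ± 0.07, adjusted p = 3.2e-05). SPRY2, a Sprouty inhibitor of receptor tyrosine kinase signalling, read 6.04, 6.08 and 6.08 on the GPR39 arrays and 6.57, 6.65 and 6.68 on the TC-G-1008 arrays (difference 0.56 ± 0.06). Of 20 brakes tested 6 were higher (30%) and 0 lower. The calls of DUSP1 and SPRY2 held in every alternative, whereas the count was 3 and 2 without GPR39 replicates 2 and 3. DUSP6 at 0.04, DUSP4 at -0.07 and SPRY4 at 0.15, common readouts of ERK activity, did not pass, and the list median was 0.08. DUSP19, an atypical dual-specificity phosphatase reported to act on JNK and absent from that list, was the second largest fall under the naming rule: it read 5.75, 5.80 and 5.88 on the GPR39 arrays and 4.45, 4.21 and 4.27 on the TC-G-1008 arrays. Its difference was -1.50 ± 0.13, with mock readings of 6.32, 5.93 and 5.82. In the chain of kinases itself, 4 of 30 were higher and 4 lower (13.3% each, against 3.7% and 9.75% of all named genes). The higher count was 1 or 2 without any 1 of the GPR39 replicates or of TC-G-1008 replicates 2 and 3. MAP2K3, an activator of p38, rose by 0.49 ± 0.08. The small GTPase RRAS fell by 0.95 ± 0.10 and MAP3K5, the stress kinase ASK1, fell by 0.83 ± 0.10.

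The RGK family small GTPases RRAD and GEM rose. RRAD, an RGK family GTPase that inhibits voltage-gated calcium channels, read 2.15, 2.92 and 2.69 on the GPR39 arrays and 6.43, 6.48 and 6.59 on the TC-G-1008 arrays. GPR39 replicate 1 was below the dim-signal limit, and the difference was 3.91 ± 0.20, or 3.75 with that reading set at the limit. GEM, of the same family, read 5.96, 5.96 and 6.0 on the GPR39 arrays and 7.43, 7.55 and 7.31 on the TC-G-1008 arrays, against mock readings of 3.94, 3.47 and 3.37 (difference 1.45 ± 0.14). None of 26 genes of cyclic AMP, calcium and phospholipase signalling was higher and 3 were lower (11.5%, near the 9.75% of all named genes), all of them calcineurin regulators, with 1 lower without GPR39 replicates 1 or 3 or TC-G-1008 replicates 1 or 3. RCAN3 read 6.43, 6.43 and 6.53 on the GPR39 arrays and 5.76, 5.59 and 5.84 on the TC-G-1008 arrays (difference -0.73 ± 0.11). The calls of RCAN1 at -0.54 ± 0.12 and RCAN2 at -0.44 ± 0.10 were lost in at least 1 alternative. Over all 33376 probe sets 7810 had an unadjusted p under 0.05.

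Transcription factor genes of the immediate-early class showed the highest share of rises of any list, 13 of 29 (44.8%) for EGR, NR4A and other factors and 6 of 13 (46.2%) for AP-1 and small MAF factors, beside 3.7% of all named genes. Their medians were 0.35 and 0.40 against -0.03. Both lists were chosen with earlier results of these arrays known. FOSB, an AP-1 subunit, read 5.72, 5.83 and 5.76 on the GPR39 arrays and 8.54, 8.46 and 8.29 on the TC-G-1008 arrays (difference 2.66 ± 0.12), and its mock readings of 5.37, 5.81 and 5.61 overlapped those of the GPR39 arrays. The other FOSB probe set differed by 1.22 and was also called. FOS read 5.20, 4.80 and 5.08 on the GPR39 arrays and 6.83, 6.67 and 6.83 on the TC-G-1008 arrays, with mock readings of 5.76, 5.76 and 5.78. The FOS difference of 1.75 ± 0.11 thus followed a GPR39 minus mock difference of -0.74, and the second FOS probe set differed by 0.76 and was not called. JUNB read 6.93, 7.11 and 7.0 on the GPR39 arrays and 8.44, 8.83 and 8.46 on the TC-G-1008 arrays (difference 1.57 ± 0.12). FOSL1 read 7.34, 7.38 and 7.42 on the GPR39 arrays and 8.20, 8.37 and 8.11 on the TC-G-1008 arrays (difference 0.85 ± 0.14). JUN and JUND rose by less, 0.41 ± 0.08 and 0.32 ± 0.06, and those calls were lost in at least 1 alternative. ATF3 at 0.52 and FOSL2 at 0.40 did not pass. All 3 TC-G-1008 arrays lay above all 3 GPR39 arrays for 10 of the 13 genes.

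EGR1, a zinc-finger factor, read 5.92, 5.97 and 5.81 on the GPR39 arrays and 8.24, 8.35 and 8.22 on the TC-G-1008 arrays (difference 2.37 ± 0.10), and both of its probe sets were called. EGR3 read 4.18, 4.17 and 4.18 on the GPR39 arrays and 5.28, 5.13 and 5.37 on the TC-G-1008 arrays (difference 1.08 ± 0.13). EGR4 rose by 1.29 ± 0.15. The mock readings of EGR1 were 5.90, 5.97 and 5.63, level with the GPR39 arrays. ARC, a cytoskeletal protein of neurons and a classic activity-regulated gene, read 4.89, 4.80 and 4.88 on the GPR39 arrays and 7.68, 7.91 and 7.69 on the TC-G-1008 arrays (difference 2.91 ± 0.11). HOMER1, a scaffold of metabotropic receptors with an activity-induced short form, read 7.74, 7.82 and 7.82 on the GPR39 arrays and 9.76, 9.82 and 9.65 on the TC-G-1008 arrays (difference 1.95 ± 0.08). SIK1, a kinase that restrains CREB coactivators, rose by 1.11 ± 0.10. IER2 rose by 1.03 ± 0.16, MYC by 0.59 ± 0.08 and ETS2 by 0.56 ± 0.07. The 2 lower members, CSRNP3 at -0.67 ± 0.14 and SOX9 at -0.44 ± 0.10, lost their calls in at least 1 alternative. SRF at 0.20 and SNAI1 at 0.62 did not pass. With 16 added on the linear scale before the log2 step, 20 of the 29 were higher.

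**Figure D3:**
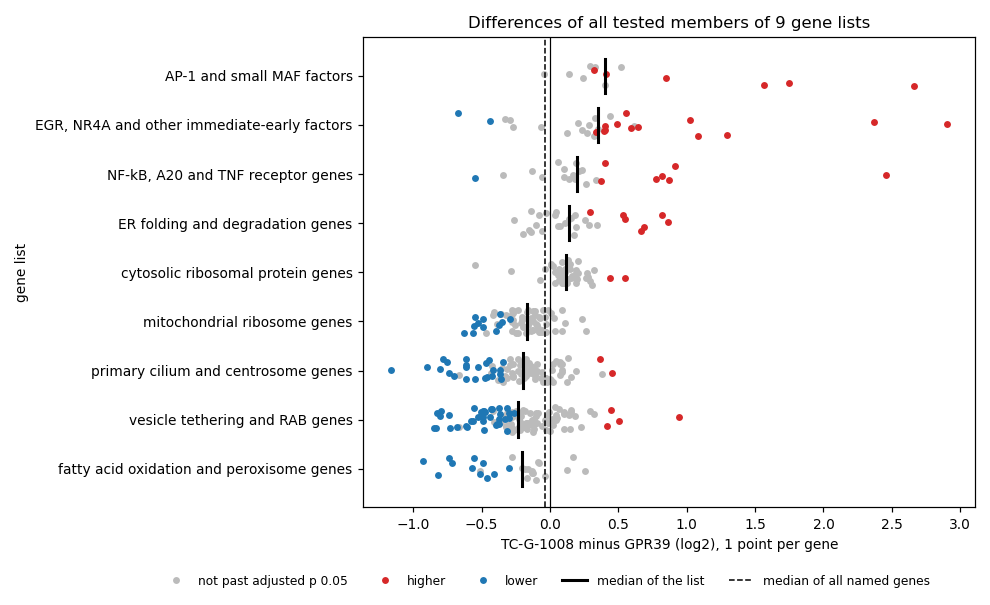
Difference between TC-G-1008 and GPR39 arrays (log2) for every tested member of 9 gene lists, 1 point per gene, red for higher and blue for lower at an adjusted p under 0.05, with a bar at each list's median and a dashed line at the median of all named genes (-0.03). The AP-1 and immediate-early lists lie to the right with a few genes above 1, while the mitochondrial ribosome, cilium, vesicle and fatty acid oxidation lists lie to the left as groups with few members below -1.

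Other regulators of transcription rose as well. KDM6B, a histone demethylase that removes a repressive methyl mark, read 6.10, 6.16 and 6.25 on the GPR39 arrays and 8.07, 8.17 and 8.01 on the TC-G-1008 arrays (difference 1.91 ± 0.08). KLF5, a Kruppel-like factor, read 5.98, 6.04 and 6.04 on the GPR39 arrays and 7.14, 7.01 and 6.82 on the TC-G-1008 arrays (difference 0.97 ± 0.09). Of the KLF and SP list 3 of 25 were higher and 1 lower, and KLF5 held in every alternative, while the higher count was 1 without any 1 GPR39 replicate or TC-G-1008 replicates 1 or 2. KLF2, KLF4 and KLF6, often induced early, stood at 0.13, 0.27 and -0.18 and did not pass. CRY1 was the 1 of 13 clock genes called, at 0.57 ± 0.08, and PER1 stood at 0.09. Among 87 homeobox genes 1 was higher and 4 lower (4.6%, against 9.75% of all named genes), or 7 lower without mock replicate 1. HOXB7 read 5.90, 5.94 and 5.97 on the GPR39 arrays and 5.16, 5.18 and 5.11 on the TC-G-1008 arrays (difference -0.79 ± 0.08). The ZNF genes, a large family of zinc-finger proteins, gave 17 higher and 27 lower of 436 (3.9% and 6.19%), near or under the background, and 5 to 7 higher and 13 to 14 lower without any 1 GPR39 replicate. The higher count was 10 without mock replicate 2 and 6, 5 and 7 without TC-G-1008 replicates 1, 2 and 3. ZNF449 had the third largest fall under the naming rule: it read 5.54, 5.54 and 5.54 on the GPR39 arrays and 4.02, 4.02 and 4.15 on the TC-G-1008 arrays. Its readings within each group lay close together, and the difference was -1.48 ± 0.07.

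Genes that end the life of induced messages or of the proteins they encode included TRIB1, a pseudokinase that directs the C/EBP alpha factor to degradation, which read 5.84, 5.81 and 5.95 on the GPR39 arrays and 6.86, 7.06 and 7.05 on the TC-G-1008 arrays (difference 1.12 ± 0.09). RC3H1, the RNA-binding protein Roquin, rose by 0.55 ± 0.09. TRIB2, a second Tribbles pseudokinase, moved the other way: it read 6.21, 6.19 and 6.15 on the GPR39 arrays and 5.10, 5.21 and 4.86 on the TC-G-1008 arrays on 1 probe set (difference -1.13 ± 0.09), while its other probe set stood at a difference of -0.20 and was not called. In this list 3 of 12 were higher and 1 lower.

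Genes of the NF-kB system were higher in 7 of 22 cases (31.8%), with a median of 0.20. NFKB1, encoding the p105 precursor of the p50 subunit, read 7.33, 7.37 and 7.37 on the GPR39 arrays and 8.21, 8.12 and 8.19 on the TC-G-1008 arrays. It rose by 0.82 ± 0.07, and its mock readings were 6.43, 6.58 and 6.48. REL read 7.46, 7.39 and 7.50 on the GPR39 arrays and 8.45, 8.47 and 8.18 on the TC-G-1008 arrays (difference 0.92 ± 0.10). NFKB2 rose by 0.77 ± 0.09 and CD83, a surface glycoprotein of activated dendritic cells, by 0.87 ± 0.13. RELA at 0.17 and RELB at 0.34 did not pass, nor did the adhesion molecule ICAM1 at -0.34. BCL2A1, an anti-apoptotic BCL2 relative and NF-kB target, read 3.0, 2.33 and 2.66 on the GPR39 arrays and 5.23, 5.30 and 4.84 on the TC-G-1008 arrays. GPR39 replicate 2 was below the dim-signal limit, so the difference of 2.46 ± 0.18 became 2.35 with that reading set at the limit. The calls of SQSTM1 at 0.40 ± 0.09, TRAF4 at 0.37 ± 0.08 and, lower, TRAF5 at -0.55 ± 0.11 were lost in at least 1 alternative.

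Death and survival genes were called in both directions, 4 higher and 4 lower of 26 (15.4% each, against 3.7% and 9.75% of all named genes). PMAIP1, the pro-apoptotic BH3 protein NOXA, read 9.82, 9.84 and 9.88 on the GPR39 arrays and 10.54, 10.69 and 10.72 on the TC-G-1008 arrays (difference 0.81 ± 0.07). BCL2 read 6.48, 6.33 and 6.45 on the GPR39 arrays and 5.57, 5.73 and 5.78 on the TC-G-1008 arrays (difference -0.73 ± 0.10). BCL2L1, encoding BCL-xL, fell by 0.67 ± 0.09. The pro-apoptotic genes BBC3 and BID, at -0.08 and -0.16, did not pass. Without GPR39 replicates 1 or 2 the counts were 2 higher and 2 lower, and 2 were lower also without GPR39 replicate 3 or TC-G-1008 replicate 2. Of 20 p53 targets 2 were higher (10%) and 4 lower (20%), with 2 lower without any 1 GPR39 replicate or TC-G-1008 replicate 1.

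In the Notch pathway a ligand on a neighbouring cell triggers cleavage of the receptor and frees its transcriptional part. Here 3 of 31 genes were higher (9.68%) and 2 lower (6.45%), against 3.7% and 9.75% of all named genes. NRARP, a target that feeds back on the Notch complex, read 6.79, 6.93 and 6.89 on the GPR39 arrays and 9.26, 9.26 and 9.19 on the TC-G-1008 arrays (difference 2.36 ± 0.11). The Notch ligand gene DLL1 read 5.01, 5.03 and 5.13 on the GPR39 arrays and 6.46, 6.12 and 6.50 on the TC-G-1008 arrays (difference 1.30 ± 0.11). HEY1, a classic target of the pathway, stood at 0.32 and did not pass. Of the BMP and TGF-beta list 2 were higher (7.14%) and 4 lower (14.3%) of 28, and these calls held in each alternative that tested them. BMP2 read 7.20, 7.22 and 7.23 on the GPR39 arrays and 8.31, 8.28 and 8.18 on the TC-G-1008 arrays (difference 1.04 ± 0.06). Its secreted antagonist NOG read 6.42, 6.45 and 6.44 on the GPR39 arrays and 5.66, 5.49 and 5.71 on the TC-G-1008 arrays (difference -0.82 ± 0.07). BMP4 fell by 0.72 ± 0.11, the inhibitory SMAD7 fell by 0.77 ± 0.11 and SMAD3 fell by 0.56 ± 0.07, and the corepressor SKI rose by 0.73 ± 0.10. In the Wnt list 2 were higher (6.06%) and 3 lower (9.09%) of 33, near the shares of all named genes. FZD8, a Frizzled receptor, rose by 0.64 ± 0.11. RNF43, a ligase that removes Frizzled receptors from the surface, fell by 0.83 ± 0.08 and LGR4, which holds RNF43 in check, fell by 0.51 ± 0.08. None of 14 Hedgehog genes was higher and 1 was lower (7.14%), a call lost in at least 1 alternative.

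Stress-response lists held more rises than the 3.7% of all named genes. The integrated stress response, in which kinases phosphorylate the initiation factor eIF2 and thereby raise ATF4 translation, gave 7 higher and 3 lower of 22, and 4 higher without GPR39 replicate 1. ATF4 read 8.61, 8.79 and 8.66 on the GPR39 arrays and 9.26, 9.19 and 9.31 on the TC-G-1008 arrays (difference 0.57 ± 0.08). SESN2, a leucine sensor that restrains mTORC1, rose by 0.75 ± 0.11 and DDIT4, another mTORC1 inhibitor, by 0.89 ± 0.12. The 4 eIF2 kinases parted: EIF2AK3, the kinase PERK of the endoplasmic reticulum, read 6.60, 6.67 and 6.56 on the GPR39 arrays and 7.40, 7.37 and 7.45 on the TC-G-1008 arrays. EIF2AK4, the amino-acid sensor GCN2, read 6.32, 6.28 and 6.28 on the GPR39 arrays and 5.68, 5.65 and 5.62 on the TC-G-1008 arrays. Their differences were 0.79 ± 0.09 and -0.64 ± 0.06, and EIF2AK2, the double-stranded RNA sensor PKR, fell by 0.41 ± 0.07. EIF2AK1 was lower at -0.32 ± 0.07, a call lost in at least 1 alternative. DDIT3, encoding CHOP, at 0.31 and TRIB3 at 0.25 did not pass. Among 16 amino-acid supply genes 5 were higher, or 3 without GPR39 replicates 1 or 3, and 2 lower. CTH, which makes cysteine from cystathionine, read 5.71, 5.78 and 5.96 on the GPR39 arrays and 7.06, 7.10 and 7.16 on the TC-G-1008 arrays (difference 1.29 ± 0.11). ASNS, asparagine synthetase, rose by 0.78 ± 0.09.

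Genes of folding and degradation in the endoplasmic reticulum were higher in 7 of 29 cases (24.1%) and lower in 0, with a median of 0.14. MANF, a secreted stress-induced chaperone cofactor, read 6.42, 6.48 and 6.48 on the GPR39 arrays and 7.33, 7.20 and 7.43 on the TC-G-1008 arrays (difference 0.86 ± 0.11). SEL1L, a scaffold of the ligase that clears misfolded proteins, read 7.89, 7.95 and 7.86 on the GPR39 arrays and 8.82, 8.74 and 8.59 on the TC-G-1008 arrays (difference 0.82 ± 0.08). HYOU1 rose by 0.69 ± 0.07 and XBP1, a transcription factor of the unfolded protein response, by 0.67 ± 0.07. The other HYOU1 probe set differed by 0.42 and was not called. CALR at 0.11, CANX at 0.18 and SDF2L1 at 0.34 did not pass. Heat-shock and DNAJ genes were called in both directions, 3 of 24 higher (12.5%) and 5 lower (20.8%), with a median of 0.05. Over all named genes the shares were 3.7% and 9.75%. HSPA1A read 12.38, 12.37 and 12.38 on the GPR39 arrays and 11.85, 11.80 and 11.80 on the TC-G-1008 arrays, and HSPA4 fell by 0.37 ± 0.06. HSPA1A, HSPA1B and HSPA1L, all among the 5 lower, are near copies of each other whose probe sets the array may not separate. The HSPA1L call was lost in at least 1 alternative. The lower count was 3 without GPR39 replicate 2, and the higher count was 0 without any 1 GPR39 replicate or TC-G-1008 replicates 2 or 3 and 1 without mock replicate 3 or TC-G-1008 replicate 1. Of 23 glucose and hypoxia genes 5 were higher and 1 lower. NDRG1, a stress and hypoxia target, read 4.81, 4.37 and 4.71 on the GPR39 arrays and 5.62, 5.99 and 5.89 on the TC-G-1008 arrays (difference 1.20 ± 0.15). ANKRD37 rose by 0.81 ± 0.11. LDHA at 0.08, PGK1 at 0.06 and EGLN3 at 0.07, common hypoxia targets, did not pass. TXNIP, the arrestin-domain relative of ARRDC4, read 3.58, 3.46 and 3.73 on the GPR39 arrays and 2.91, 3.12 and 2.89 on the TC-G-1008 arrays, a difference of -0.62 ± 0.13 whose call was lost in at least 1 alternative.

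**Figure D4:**
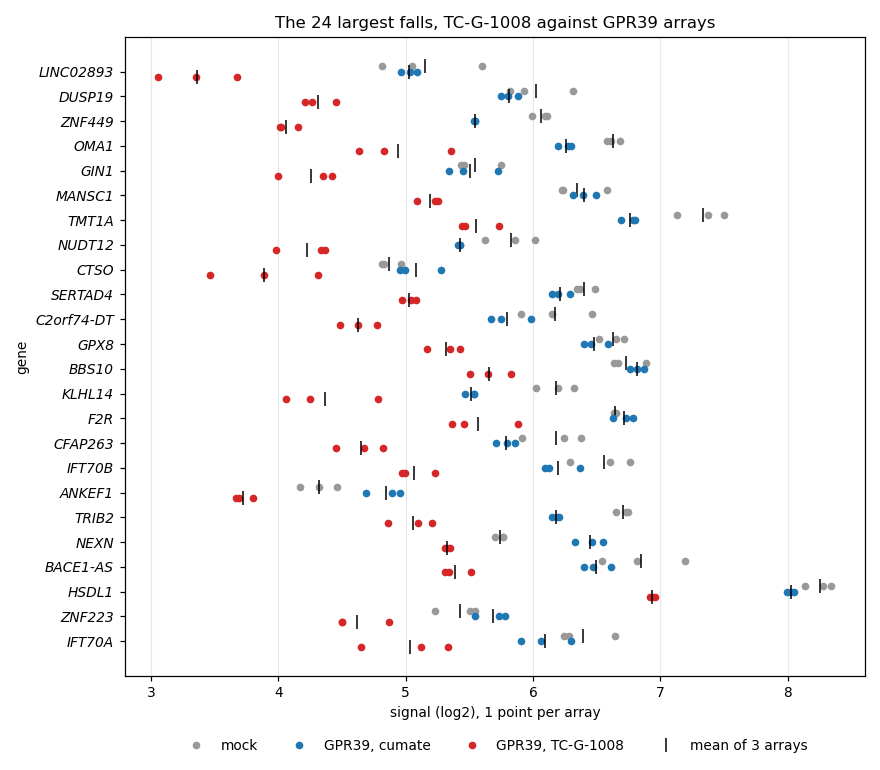
Signal (log2) on each of the 9 arrays for the 24 genes with the largest fall under the naming rule, grey for mock, blue for GPR39 and red for TC-G-1008, with a bar at each group's mean. The naming rule admits only genes whose red points lie to the left of the blue points. No difference of group means exceeds 1.67.

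Among the 24 largest falls were genes of mitochondria, cilia and cell structure. LINC02893, a long noncoding RNA, read 5.03, 5.09 and 4.96 on the GPR39 arrays and 3.35, 3.68 and 3.06 on the TC-G-1008 arrays (difference -1.67 ± 0.21). OMA1, a stress-activated protease of the inner mitochondrial membrane, read 6.20, 6.28 and 6.30 on the GPR39 arrays and 4.63, 5.36 and 4.83 on the TC-G-1008 arrays. Replicate 2 was the highest of the TC-G-1008 arrays, under every GPR39 array as the naming rule required, and the difference was -1.32 ± 0.17. GIN1, an integrase-derived gene, fell by 1.25 ± 0.15 and NUDT12, a peroxisomal hydrolase of reduced nicotinamide nucleotides, fell by 1.20 ± 0.13. NEXN, an actin-binding protein, read 6.47, 6.55 and 6.33 on the GPR39 arrays and 5.34, 5.32 and 5.31 on the TC-G-1008 arrays, and at mock readings of 5.76, 5.70 and 5.76 its GPR39 arrays were 0.71 above mock (difference -1.13 ± 0.07). HSDL1, a dehydrogenase-like protein, read 8.0, 8.02 and 8.05 on the GPR39 arrays and 6.92, 6.96 and 6.94 on the TC-G-1008 arrays (difference -1.09 ± 0.07). IFT70A, with a difference of -1.06 ± 0.19, was the only 1 of the 48 largest rises and falls to lose its call in an alternative (without GPR39 replicates 1 or 3, and with the replicate block), and it has a near copy, IFT70B (difference -1.13 ± 0.14). The other IFT70A probe set stood at a difference of -0.48 and was not called.

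Vesicle tethering and RAB genes, which dock and sort membrane carriers, were lower in 36 of 114 cases (31.6%, against 9.75% over all named genes) and higher in 4. Their median was -0.23, and 90 of 114 differences were below 0. VPS52, a subunit of a tether that returns carriers from endosomes to the Golgi, read 8.82, 8.86 and 8.83 on the GPR39 arrays and 8.06, 7.96 and 8.01 on the TC-G-1008 arrays (difference -0.83 ± 0.06). TRAPPC11, of the TRAPP tether, read 7.10, 7.12 and 7.14 on the GPR39 arrays and 6.39, 6.41 and 6.37 on the TC-G-1008 arrays (difference -0.73 ± 0.07). VPS33A and VPS33B, which catalyse membrane fusion at late endosomes, stood lower, at -0.81 ± 0.12 and -0.56 ± 0.07. EXOC2, of the exocyst that tethers carriers to the plasma membrane, fell by 0.58 ± 0.06. STX11, a syntaxin of immune cell secretion, went up: it read 5.53, 5.51 and 5.57 on the GPR39 arrays and 6.44, 6.59 and 6.42 on the TC-G-1008 arrays (difference 0.95 ± 0.11). Without 1 array the count of lower members changed: it was 16, 20 and 14 without GPR39 replicates 1, 2 and 3, and 21 and 22 without TC-G-1008 replicates 1 and 3. Of the 36 lower members 14 held in every alternative. Lysosome and cathepsin genes were lower in 9 of 38 cases and higher in 0, with counts of 3 to 5 without mock replicate 2 or any 1 GPR39 or TC-G-1008 replicate. SGSH, which degrades heparan sulfate, read 6.65, 6.74 and 6.60 on the GPR39 arrays and 6.05, 5.86 and 6.02 on the TC-G-1008 arrays (difference -0.69 ± 0.10). CTSO, a cysteine cathepsin, fell by 1.19 ± 0.20. Of 38 autophagy genes 1 was higher (2.63%) and 2 lower (5.26%), under the 3.7% and 9.75% of all named genes.

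Genes of the primary cilium and the centrosome were lower in 23 of 91 cases (25.3%) and higher in 2, with a median of -0.19. TCTN2, of the gate between cilium and cell body, read 8.72, 8.73 and 8.73 on the GPR39 arrays and 7.99, 7.93 and 7.85 on the TC-G-1008 arrays (difference -0.81 ± 0.06). BBS10, a chaperone-like protein needed to build the BBSome cargo adaptor, read 6.87, 6.76 and 6.82 on the GPR39 arrays and 5.82, 5.64 and 5.51 on the TC-G-1008 arrays (difference -1.16 ± 0.10). BBS2, of the BBSome itself, fell by 0.62 ± 0.09. TMEM237 (-0.55 ± 0.06), TMEM107 (-0.78 ± 0.10) and IFT81, which carries tubulin along the cilium (-0.75 ± 0.11), were lower too. Lower members numbered 15, 13 and 14 without GPR39 replicates 1, 2 and 3 and 15 without TC-G-1008 replicate 1, and 11 held in every alternative.

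Fatty acid oxidation and peroxisome genes had the highest share of falls among the lists of 20 or more members, 11 of 27 (40.7%), and 0 rises. CPT2, which completes the import of long-chain fatty acids into mitochondria, read 6.93, 7.07 and 6.97 on the GPR39 arrays and 5.88, 6.13 and 6.18 on the TC-G-1008 arrays (difference -0.93 ± 0.11), and both of its probe sets were called. PEX19, a receptor for peroxisomal membrane proteins, read 6.89, 6.73 and 7.05 on the GPR39 arrays and 5.98, 6.0 and 6.24 on the TC-G-1008 arrays (difference -0.82 ± 0.12). Peroxisomal catalase was also among the lower members. HSD17B4, of peroxisomal beta-oxidation, fell by 0.51 ± 0.07. CPT1A at -0.13 and ACAA1 at -0.16 did not pass. The count was 7, 6 and 7 without GPR39 replicates 1, 2 and 3 and 7 without TC-G-1008 replicate 3. Sterol and fatty acid synthesis genes were lower in 12 of 48 cases (25%) and higher in 5, with a median of -0.20. ELOVL6, an elongase of fatty acids, read 6.73, 6.64 and 6.62 on the GPR39 arrays and 5.85, 5.88 and 5.75 on the TC-G-1008 arrays (difference -0.83 ± 0.07). INSIG1, which retains the sterol sensor SCAP in the endoplasmic reticulum, rose: it read 9.08, 9.09 and 9.25 on the GPR39 arrays and 10.26, 10.35 and 10.04 on the TC-G-1008 arrays (difference 1.08 ± 0.09). SCD, the stearoyl desaturase, fell by 0.46 ± 0.07 and SQLE, squalene epoxidase, fell by 0.40 ± 0.07. The other SCD probe set stood at a difference of -0.25 and was not called. HMGCS1 was higher at 0.46 ± 0.09, a call lost in at least 1 alternative. Without GPR39 replicates 1, 2 and 3 the lower counts were 7, 5 and 5, without TC-G-1008 replicate 2 the lower count was 6, and the higher count was 3 without GPR39 replicate 1 or TC-G-1008 replicate 1 and 2 without GPR39 replicate 2.

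Mitochondrial lists shifted down as groups with few members past the threshold. The share lower was 9.75% over all named genes, and 16.5% and 16.2% in the 2 brightest of the 5 groups by signal. The lists were not matched for signal, and its part in their shares was not tested. Of 75 mitochondrial ribosome genes 12 were lower (16%) and 0 higher, and 67 of the 75 differences were below 0, with a median of -0.17. MRPS14 read 6.74, 6.58 and 6.58 on the GPR39 arrays and 5.96, 6.15 and 5.91 on the TC-G-1008 arrays (difference -0.63 ± 0.09). The cytosolic ribosomal protein genes went the other way, with 4 of 49 below 0 and a median of 0.12, but only 2 of them were higher and 0 lower, and neither call held in every alternative. The mitochondrial count fell to 4, 6 and 6 without GPR39 replicates 1, 2 and 3 and to 5 without TC-G-1008 replicate 1. Respiratory chain genes were lower in 6 of 44 cases, or 3, 2 and 2 without GPR39 replicates 1, 2 and 3, and higher in 0. TIMMDC1, an assembly factor of complex I, read 9.12, 9.03 and 8.99 on the GPR39 arrays and 8.32, 8.35 and 8.45 on the TC-G-1008 arrays (difference -0.67 ± 0.07). Import and quality control genes were lower in 10 of 54 cases and higher in 1, with 5, 5 and 6 lower without GPR39 replicates 1, 2 and 3. MTIF3, a mitochondrial initiation factor, fell by 0.83 ± 0.12 and TOMM6, of the outer membrane pore, fell by 0.45 ± 0.08. Of 40 oxidative defence genes 7 were lower, or 4, 3 and 3 without GPR39 replicates 1, 2 and 3, and 0 higher. GPX8, a peroxidase of the endoplasmic reticulum, read 6.59, 6.40 and 6.46 on the GPR39 arrays and 5.16, 5.43 and 5.35 on the TC-G-1008 arrays (difference -1.17 ± 0.10).

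DNA repair genes were lower in 15 of 61 cases (24.6%) and higher in 2, with a median of -0.13, and 10 of the 15 held in every alternative. PMS2, of mismatch repair, read 7.14, 7.07 and 7.18 on the GPR39 arrays and 6.09, 6.29 and 6.12 on the TC-G-1008 arrays (difference -0.96 ± 0.08). POLI, a translesion polymerase, read 6.62, 6.64 and 6.77 on the GPR39 arrays and 5.72, 5.93 and 5.83 on the TC-G-1008 arrays (difference -0.85 ± 0.08). ATR, the kinase that senses stalled forks, fell by 0.60 ± 0.08, RAD17, a clamp loader that helps activate it, fell by 0.67 ± 0.06 and RAD50, of the break-sensing MRN complex, fell by 0.51 ± 0.06. EXO1, an exonuclease of mismatch repair, rose by 0.52 ± 0.07. Mitosis and kinesin genes were lower in 13 of 59 cases (22%) and higher in 1, with a median of -0.18. Lower members numbered 5, 5 and 4 without GPR39 replicates 1, 2 and 3 and 7 without TC-G-1008 replicate 1. CENPI, of the inner kinetochore, read 7.60, 7.59 and 7.72 on the GPR39 arrays and 6.68, 6.91 and 6.70 on the TC-G-1008 arrays (difference -0.88 ± 0.08). HMMR, a spindle protein, read 8.22, 8.22 and 8.33 on the GPR39 arrays and 7.56, 7.56 and 7.51 on the TC-G-1008 arrays (difference -0.71 ± 0.06). The 1 riser was CDC25A, a phosphatase that activates cyclin-dependent kinases, at 0.60 ± 0.08. Of 17 G1 cyclins and CDK inhibitors 1 was higher (5.88%) and 3 were lower (17.6%), against 3.7% and 9.75% of all named genes. Of the 3 lower members 2 held in every alternative. CCND1, cyclin D1, read 7.37, 7.37 and 7.35 on the GPR39 arrays and 8.04, 8.02 and 7.89 on the TC-G-1008 arrays (difference 0.62 ± 0.07). RRM2, of ribonucleotide reductase, rose by 0.63 ± 0.06, and RBL2, a retinoblastoma relative found in resting cells, fell by 0.63 ± 0.08. Of 35 S phase genes 3 were higher (8.57%) and 2 lower (5.71%).

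**Figure D5:**
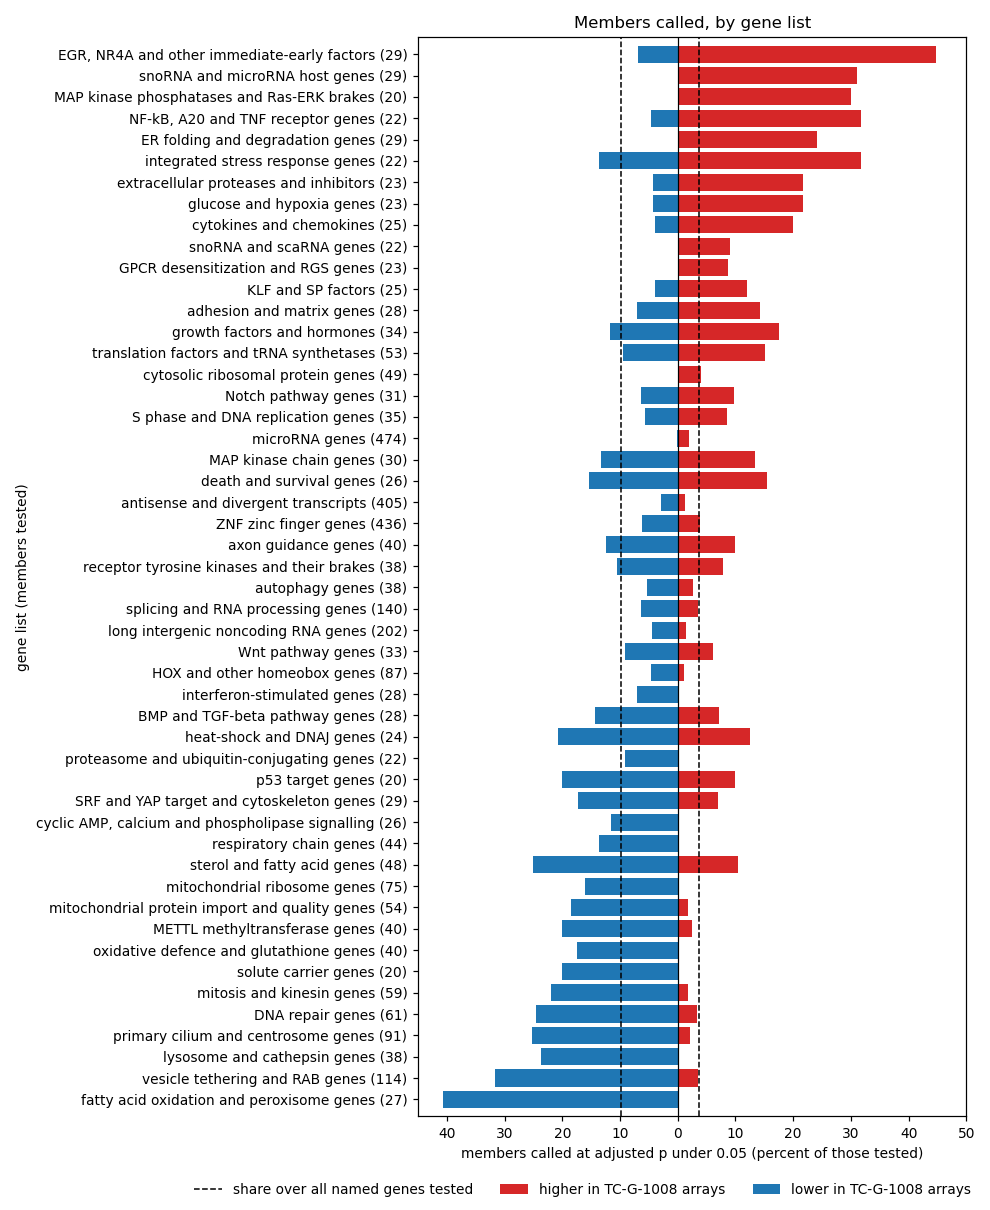
Percent of tested members called higher (red, to the right) and lower (blue, to the left) in TC-G-1008 arrays for gene lists with at least 20 tested members, the number tested in brackets, with dashed lines at the shares over all named genes (3.7% higher, 9.75% lower). Immediate-early factors at the top have 44.8% higher, and fatty acid oxidation and peroxisome genes at the bottom have 40.7% lower.

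Genes of the cell surface and matrix changed in both directions. TM4SF1, a tetraspan surface protein, was below the dim-signal limit on all 3 GPR39 arrays and read 5.15, 5.34 and 4.63 on the TC-G-1008 arrays, at least 5.27-fold higher with the limit in place of the dim readings (measured GPR39 mean 2.34, adjusted p = 1.1e-04). The matrix protein gene TNC, tenascin-C, was among the members that rose. CD44, the hyaluronan receptor, read 5.95, 5.97 and 5.95 on the GPR39 arrays and 6.73, 6.83 and 6.71 on the TC-G-1008 arrays, against mock readings of 4.09, 4.35 and 4.19 (difference 0.80 ± 0.08). THBS1, thrombospondin-1, rose by 0.84 ± 0.12. CLDN7, a tight-junction claudin, fell by 0.52 ± 0.07. VIM at -0.17 and SDC4 at 0.53 did not pass, and the list of 28 had 4 higher and 2 lower with a median of -0.05. In the SRF and YAP list, 2 of 29 were higher (6.9%) and 5 lower (17.2%), against 3.7% and 9.75% of all named genes. AMOT, which holds YAP in the cytoplasm, read 6.36, 6.49 and 6.40 on the GPR39 arrays and 5.68, 5.57 and 5.32 on the TC-G-1008 arrays, and its mock readings were 7.75, 7.86 and 7.88 (difference -0.89 ± 0.10). TEAD2, a DNA-binding partner of YAP, fell by 1.0 ± 0.09. ANKRD1 at 0.37 did not pass. The lower count was 3 without any 1 GPR39 or TC-G-1008 replicate. Among axon guidance genes the ephrins EFNB1 and EFNB2 rose by 0.49 ± 0.08 and 0.66 ± 0.08, and the semaphorin receptors NRP1 and PLXNA2 stood lower, at -0.76 ± 0.09 and -0.73 ± 0.12. Of 28 interferon-stimulated genes 2 fell (7.14%, under the 9.75% of all named genes) and 0 rose. They were SAMD9, an antiviral restriction factor (-1.06 ± 0.11), and HERC6 (-0.88 ± 0.07).

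RNA-processing genes were near the background. Of 140 splicing and RNA-processing genes 5 were higher and 9 lower (3.57% and 6.43%), and 1 of these calls held in every alternative, the helicase gene DHX32 at -0.56 ± 0.07. The lower count was 5 without mock replicate 2 and 1 or 2 without any 1 of the GPR39 replicates or TC-G-1008 replicates 1 and 3, and the higher count was at most 2 without any 1 GPR39 or TC-G-1008 replicate. Translation factors and tRNA synthetases had 8 of 53 higher (15.1%), or 3 and 4 without GPR39 replicates 1 and 3, and 5 lower (9.43%). EIF1, which sets start-codon choice, rose by 0.42 ± 0.06. METTL and other methyltransferase genes, not all of which act on RNA, were lower in 8 of 40 cases (20%) and higher in 1 (2.5%). The lower count was 5 without GPR39 replicates 1 or 2. TRMT1L, a transfer RNA methyltransferase, read 8.29, 8.29 and 8.35 on the GPR39 arrays and 7.35, 7.41 and 7.23 on the TC-G-1008 arrays (difference -0.98 ± 0.08).

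Among the lists of noncoding genes, the hosts of small RNAs had the highest share of rises. Host genes of snoRNAs and microRNAs were higher in 9 of 29 cases (31.0%) and lower in 0, with 5 higher without GPR39 replicates 1 or 3. SNHG5 read 7.10, 7.19 and 7.10 on the GPR39 arrays and 8.03, 8.01 and 8.0 on the TC-G-1008 arrays (difference 0.88 ± 0.06). ZFAS1 rose by 0.74 ± 0.10, SNHG8 by 0.61 ± 0.07 and SNHG15 by 0.69 ± 0.12. Of 474 microRNA genes with a tested probe set 9 were higher (1.9%) and 1 lower (0.211%). Both shares were under the 3.7% and 9.75% of all named genes. The probe sets read transcripts of the gene, and no mature microRNA was measured. MIR4534 read 6.28, 6.31 and 6.13 on the GPR39 arrays and 7.86, 7.35 and 7.27 on the TC-G-1008 arrays (difference 1.25 ± 0.15), and its mature product is shown with that of MIR210, a hypoxia-induced microRNA gene at 0.44 ± 0.08 whose call was lost in at least 1 alternative. Capitals mark the seed, bases 2 to 8, and both come from RefSeq on GRCh38.p14, miR-4534 at chr22:37988829-37988845 on the plus strand within POLR2F and miR-210-3p at chr11:568112-568133 on the minus strand within MIR210HG.
miR-4534: gGAUGGAGgaggggucu
miR-210-3p: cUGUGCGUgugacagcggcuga

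The 2 seeds differ. The signal of a probe set inside a host gene cannot be told apart from that of the host, and MIR210HG itself stood at 0.18 and did not pass. The other microRNA gene that held in every alternative was MIR3143, which read 7.32, 7.69 and 7.71 on the GPR39 arrays and 8.80, 8.73 and 8.32 on the TC-G-1008 arrays (difference 1.05 ± 0.15). The microRNA count was 4, 3 and 4 without GPR39 replicates 2 and 3 and TC-G-1008 replicate 3. Long intergenic RNAs gave 3 higher and 9 lower of 202 (1.49% and 4.46%, under the 3.7% and 9.75% of all named genes). The lower count was 5, 3, 4 and 5 without GPR39 replicates 1, 2 and 3 and TC-G-1008 replicate 3. LINC00473, a cyclic AMP-induced noncoding RNA, read 2.73, 2.81 and 2.92 on the GPR39 arrays and 3.64, 3.95 and 3.93 on the TC-G-1008 arrays (difference 1.02 ± 0.11). Antisense and divergent transcripts gave 5 higher and 12 lower of 405 (1.23% and 2.96%), or 5, 7 and 4 lower without GPR39 replicates 1, 2 and 3 and 3 lower without TC-G-1008 replicate 1. Both shares were under those of all named genes.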

How the data were processed

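RNA of 9 HEK293 samples was hybridised to an Affymetrix array after column extraction with DNase and biotin labelling, per the labels' protocols. The deposited table holds log2 values per probe set, made by the authors with MAS5, per the submitters' processing notes. The sources used here do not state its version, background step or scaling. MAS5 leaves dim probe sets noisy, and differences between them are less certain. Columns were mapped to groups by the labels.

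A linear model of the 3 groups was fitted to all 9 arrays with limma 3.58.1 in R 4.3.3, over probe sets above the 40th percentile in at least 3 arrays. P-values were adjusted by the method of Benjamini and Hochberg over 33376 probe sets, with a threshold of 0.05. Each named gene took its probe set with the smallest p. That choice raises the share called among genes with several probe sets: of 76 called genes with more than 1, the signs differed in 12. Of 53617 probe sets 16098 carried 1 symbol and 37519 were unnamed here. Symbols were updated through RefSeq (GRCh38.p14), which held every Entrez identifier.

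Genes were named by a rule: the 24 largest rises and falls among called genes with groups that did not overlap and a higher mean above the median of tested values, up to 6 members of each list in each direction by smallest p, and list members of a key role whether or not they passed. NTS, GAL, SIK1, IER2, IFT81, VPS33A, ABL2 and PRR9 fall outside it and were chosen after their values were seen, and EYA1 is named as a cell type marker. Members and lists were chosen with earlier results of these data known. On data simulated with normal noise, 200 of 33376 probe sets were changed in each of 10 draws. Of those changed 1.5, 2 and 4-fold, 37.6%, 68.1% and 92.3% were recovered. The arrays themselves had 3025 probe sets called, so these shares need not hold for them. The alternatives were the 6 arrays alone, a replicate block, other scaling, other filters, an added constant, a trend, repeated rows removed and each array left out. Results of 1 gene list are not reported here.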

Additional observations from a re-analysis of the deposited data

How the results depend on the processing

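The main analysis called 1040 probe sets higher and 1985 lower. None of the 372 called genes that the naming rule gave turned its direction under any of the 18 alternatives that tested it, and 146 of them lost their call in at least 1. The 9 called genes named outside the rule kept their call in each alternative that tested them. Leaving out 1 array gave 546 to 1212 higher and 921 to 1907 lower, with the lowest counts without a GPR39 array, and fewer samples entered those fits. With the replicate number as a block, 686 were higher and 1133 lower. Same-numbered arrays of the 2 groups had deviations that correlated at -0.018, -0.033 and 0.002, so no shared shift by number was seen. These values cannot tell whether same-numbered samples were handled together. Between 32.5% and 40.4% of the calls were higher, against 34.4% in the main analysis. Among single lists, 20 immediate-early factors were higher with 16 added to the signal, and 17 vesicle and 14 cilium genes were lower with the block; the cause was not tested. With 3 arrays a group, small changes are missed, and dim probe sets limit the rest.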

Other observations

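The genes that rose at least 2-fold were short. Among protein-coding genes their median length was 8.43 kb (62 genes), against 25.6 kb for all that rose (405), 37.3 kb for all that fell (1125), 21.3 kb for those that fell at least 2-fold (27) and 27.3 kb for all tested (10280). Chromosome 18 had 32 of 156 coding genes lower (20.5%), and chromosome 19 had 36 of 850 (4.24%), beside 1125 of 10280 over the genome. These are descriptions of genes, which are not independent replicates.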
